A study of Mus musculus with 18 samples.

Results

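The genes described are 9 components of the tight junction, the claudins Cldn1, Cldn4, Cldn5, Cldn7, Cldn8, Cldn12 and Cldn23, together with Ocln, which encodes occludin, and Tjp1, which encodes the scaffold protein ZO-1. They were chosen by symbol, and all 9 were present among the 14521 named genes of the expression table. mRNA was sequenced from skin of 6 mice of the SKH-1E strain, an outbred strain whose fur is lost through a defect in the Hairless gene and which is used to study tumours caused by ultraviolet light. The mice were female littermates that received chronic ultraviolet B from a solar simulator, so every sample comes from irradiated skin and no unirradiated skin was compared. Each mouse (numbers 2, 3, 7, 8, 9 and 10) gave 1 sample of non-lesional chronically irradiated skin (CHR), 1 papilloma (PAP), a benign and precancerous outgrowth of the epidermis, and 1 cutaneous squamous cell carcinoma (SCC). This gave 18 libraries with n = 6 in each group, and differences were taken within mice.

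Tight junctions seal the space between neighbouring epithelial cells. Claudins span the membrane and set which ions and small molecules can pass, occludin spans the membrane beside them, and ZO-1 binds both from the inside and ties them to actin. In the epidermis they are placed in the granular layer, below the cornified layer, and mice without Cldn1 lose water through the skin and die soon after birth. Claudin-5 is instead the main claudin of endothelium, the lining of blood vessels.

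Levels are given as normalised reads, that is, whole reads recovered from the deposited values and divided by the size factor of the library. The libraries held 15.4 to 21.0 M such reads. Log2 fold changes are on the scale log2(deposited value + 1), which compresses low levels and so understates changes in weakly expressed genes. A gene was called changed when the adjusted p of limma, with the mouse as block and Benjamini-Hochberg adjustment over 14521 genes, was under 0.05. With the mouse as block, the p-values rest on how much the differences between tissues varied among these 6 mice. Each mouse gave 1 sample per tissue, so variation between lesions of a mouse cannot be told apart from this.

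Cell content differed between the groups, and its part in the results below was not tested. In a bulk sample fewer cells of a type and less RNA per cell cannot be told apart. Of 15 keratinocyte genes, 14 were higher in PAP than in CHR and 10 were higher in SCC, and their summed normalised reads were 316823 to 491232 in CHR, 787369 to 1297832 in PAP and 305240 to 874510 in SCC. All 12 skeletal muscle genes were lower in PAP and in SCC than in CHR, with summed reads of 392822 to 590007 in CHR, 307.3 to 29570 in PAP and 412.7 to 198556 in SCC. Of 11 measured sebaceous gland genes 10 were lower and 1 higher in PAP and in SCC against CHR, and they summed to 54249 to 161974 reads in CHR, 4642 to 10399 in PAP and 5394 to 17874 in SCC. Adipocyte, dermal fibroblast, myeloid and T cell genes were mostly lower in PAP than in CHR, with 9 of 10, 7 of 8, 6 of 7 and 8 of 8 called lower. The counts called lower in SCC against CHR were 9 of 10, 2 of 8, 6 of 7 and 6 of 8, and none of their genes was called higher in either comparison. Over all genes, 29.3% were called lower and 23.3% higher in PAP against CHR, and 22.7% and 15.8% in SCC against CHR. In none of these lists was a gene at 0 in all 18 libraries.

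The sequence before the transcription start is shown for Cldn1 and Ocln, which fell in both kinds of tumour, and for Cldn4, the other abundant claudin, which was not called in any comparison. Each run is the 250 bases upstream of the RefSeq start in GRCm38.p6, read 5′ to 3′ on the gene's own strand, which is the minus strand for all 3 genes. Capitals mark matches on either strand to GGGCGG (the GC box of Sp1), TGANTCA (AP-1), CAGGTG (the E-box of Snail and Zeb factors), CCGGAA (ETS) and AACNNGTT (grainyhead).
Cldn1, chr16:26371840-26372089: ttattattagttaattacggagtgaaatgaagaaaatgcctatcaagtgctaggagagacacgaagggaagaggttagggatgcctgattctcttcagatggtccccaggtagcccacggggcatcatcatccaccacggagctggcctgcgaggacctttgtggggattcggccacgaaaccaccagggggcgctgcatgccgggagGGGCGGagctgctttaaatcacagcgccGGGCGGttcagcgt
Ocln, chr13:100552719-100552968: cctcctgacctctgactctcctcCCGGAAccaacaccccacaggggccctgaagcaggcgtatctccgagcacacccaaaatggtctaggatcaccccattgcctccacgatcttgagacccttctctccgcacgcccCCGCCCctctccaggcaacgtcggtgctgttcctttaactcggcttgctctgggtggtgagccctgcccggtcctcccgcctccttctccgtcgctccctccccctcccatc
Cldn4, chr5:134946935-134947184: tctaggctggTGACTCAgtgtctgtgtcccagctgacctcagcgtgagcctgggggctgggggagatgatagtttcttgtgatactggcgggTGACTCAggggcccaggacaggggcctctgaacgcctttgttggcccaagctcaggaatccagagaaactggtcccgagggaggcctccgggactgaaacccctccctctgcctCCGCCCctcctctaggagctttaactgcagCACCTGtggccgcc
The Cldn1 window held 2 GC boxes within 42 bases of the start and no match to the other 4 motifs. The Ocln window held 1 GC box and 1 ETS match. Cldn4 had 2 AP-1 matches, 158 and 240 bases before the start, besides 1 GC box and 1 E-box, 14 bases before the start. Among 32851 promoters of this length, 32.7% held a GC box, 6.75% an AP-1 match, 17.2% the E-box, 12% the ETS match and 3.64% the grainyhead match, and these matches are descriptions of letters and not of binding. Of the 9 genes, 7 had a window in the RefSeq table and Cldn8 and Cldn23 did not. In the remaining windows Cldn5 held 1 GC box and 1 grainyhead match, Tjp1 held 2 GC boxes, and Cldn7 and Cldn12 held 1 ETS match each. The Tjp1 window, from 65371245 to 65371494 on chromosome 7, lies inside the gene span given below and not at its outer start.

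In PAP against CHR, 4 of the 9 genes were lower (Cldn1, Cldn5, Cldn23 and Ocln) and 1 was higher (Tjp1), whereas 29.3% of all genes tested were called lower and 23.3% higher. In SCC against CHR, 3 of the 9 were lower (Cldn1, Cldn23 and Ocln) and 0 higher, beside 22.7% and 15.8% of all genes. In SCC against PAP, 1 of the 9 was higher (Cldn5) and 0 were lower, beside 8.75% and 1.1% of all genes. At an unadjusted p under 0.05, limma had 1 further gene lower in SCC against PAP (Cldn1) and 1 higher in SCC against CHR (Cldn7), and limma-voom called neither. Of all 14521 genes, 3570 and 6953 had an unadjusted limma p under 0.05 in these comparisons, in either direction. The 2 comparisons with CHR share the CHR libraries and are not independent of each other.

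**Figure D1:**
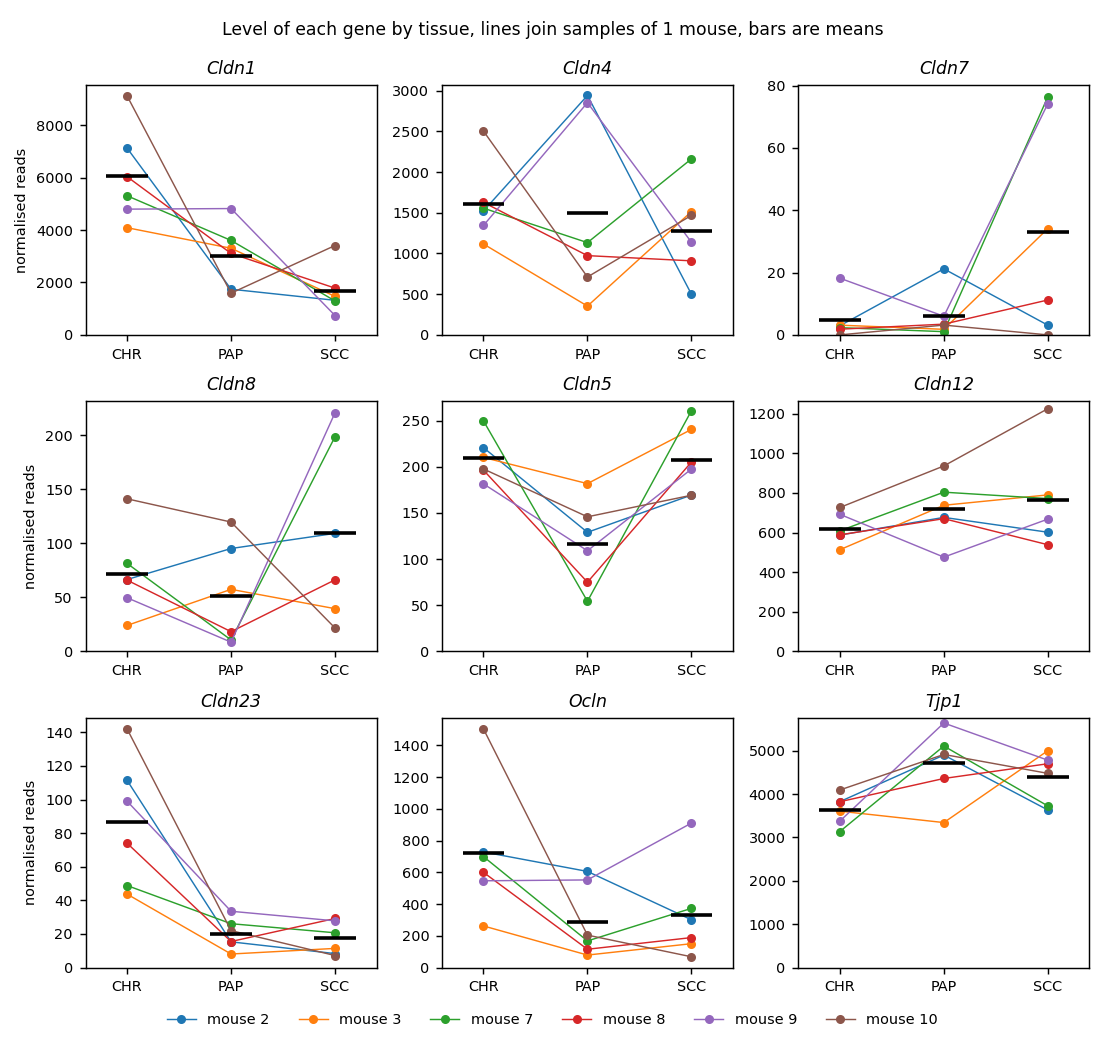
Normalised reads (vertical axes, from 0) of the 9 genes in CHR, PAP and SCC (horizontal axes). Points are samples, lines join the 3 samples of 1 mouse and black bars are group means (n = 6). In Cldn1 and Cldn23 all 6 SCC samples lie below all 6 CHR samples, and in Cldn5 the line of every mouse dips in PAP.

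Cldn1, the barrier claudin of the epidermis, fell to 3.64-fold lower mean levels in SCC than in CHR, with papillomas between them. The gene (ENSMUSG00000022512.3) lies on the minus strand of chromosome 16, from 26356642 to 26371841 in GRCm38. Its normalised reads were lowest 4088, median 5669 and highest 9114 in CHR, then 1591, 3205 and 4818 in PAP, and 738.3, 1393 and 3409 in SCC. Every carcinoma lay below every CHR sample, while papillomas overlapped with both other groups. The overlap with CHR came from mouse 9 alone, whose papilloma was as high as its irradiated skin. Carcinomas differed from CHR by -1.91 ± 0.34 on the log2 scale (SE, limma adjusted p = 0.00102), lower in 6 of 6 mice, and by mouse the difference ran from -2.58 to -1.40.

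In PAP against CHR, Cldn1 fell from 6077 ± 1817 to 3027 ± 1211 normalised reads (mean ± SD, n = 6), with a log2 fold change of -1.04 ± 0.34 and a limma adjusted p of 0.0221, lower in 5 of 6 mice. Without mouse 2 it was -0.85 with an adjusted p of 0.0888, and without mouse 8 -1.06 with 0.0552. Between papilloma and carcinoma the level went from 3027 ± 1211 to 1669 ± 917.3, lower in 5 of 6 mice. This difference of -0.87 ± 0.34 did not pass the threshold, with a limma adjusted p of 0.133. The exception was mouse 10, whose papilloma had the lowest Cldn1 of its group (1591) and whose carcinoma had the highest (3409). Without mouse 10 the log2 fold change was -1.26 with a limma adjusted p of 0.0141, and without mouse 9 it was -0.53 with an adjusted p of 0.325.

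Cldn23, a further member of the claudin family, was 4.31-fold lower in PAP and 4.96-fold lower in SCC than in CHR by ratio of means. The gene (ENSMUSG00000055976.6) lies on the minus strand of chromosome 8 from 35824712 to 35826559. Levels in CHR were 43.7, 86.5 and 142.0 normalised reads (lowest, median, highest), against 8.06, 18.8 and 33.5 in PAP and 7.16, 16.1 and 29.2 in SCC. No papilloma or carcinoma reached the lowest CHR sample, and the 2 tumour groups covered almost the same range. The log2 fold change was -0.94 ± 0.16 in PAP against CHR (limma adjusted p = 0.000328) and -1.01 ± 0.16 in SCC against CHR (limma adjusted p = 0.000459), lower in 6 of 6 mice each time. For the same comparisons limma-voom on the recovered reads gave -2.06 and -2.26, and quantile normalisation gave -0.41 (adjusted p = 0.0353) and -0.76 (adjusted p = 0.00193), all still called. Papilloma and carcinoma differed by -0.07 ± 0.16 with a limma adjusted p of 0.835.

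Ocln, the gene of occludin, was lower in both tumours than in CHR on average, with wide spread between mice. The gene (ENSMUSG00000021638.12) spans 100496507 to 100552718 on the minus strand of chromosome 13. Levels were 262.3, 649.7 and 1504 normalised reads in CHR (lowest, median, highest), 78.8, 186.2 and 606.0 in PAP, and 68, 245.1 and 910.9 in SCC. All groups overlapped, with mouse 10 highest in CHR and lowest in SCC, and with mouse 9 near its CHR level in PAP and above it in SCC. In PAP against CHR the mean went from 723.6 ± 416.9 to 287.5 ± 230.6, a log2 fold change of -1.25 ± 0.40 with a limma adjusted p of 0.018, lower in 5 of 6 mice. Without mouse 7 the adjusted p was 0.0582 and without mouse 8 it was 0.0695.

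Carcinomas had Ocln at -1.12 ± 0.40 relative to CHR on the log2 scale (limma adjusted p = 0.0395), lower in 5 of 6 mice. This call was lost without the mouse block (adjusted p = 0.0675), and without mouse 2 (0.0653), 3 (0.0676), 7 (0.0656), 8 (0.102) or 10 (0.13). It was also lost with limma-voom (0.0883), on the log2 recovered count (0.0514) and when only the 2 groups were fitted (0.0855). Without mouse 10 the log2 fold change itself was -0.64. The carcinoma and papilloma levels of Ocln differed by 0.12 ± 0.40 with a limma adjusted p of 0.884.

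Cldn5, the endothelial claudin, was 1.81-fold lower in papillomas than in irradiated skin and near the CHR level in carcinomas. The gene lies on the plus strand of chromosome 16 from 18776847 to 18778262. Its normalised reads were 181.5, 204.0 and 249.8 in CHR (lowest, median, highest), 54.2, 119.0 and 181.8 in PAP, and 169.2, 201.4 and 260.8 in SCC. Papillomas overlapped with the other groups only through mouse 3, the highest papilloma at 181.8. PAP against CHR gave a log2 fold change of -0.64 ± 0.16, lower in 6 of 6 mice (limma adjusted p = 0.00472). In SCC against PAP it was 0.63 ± 0.16, higher in 6 of 6 mice with an adjusted p of 0.0292, and SCC against CHR gave -0.02 ± 0.16 with an adjusted p of 0.941. The call between carcinoma and papilloma was lost without mouse 3 (adjusted p = 0.0603), 7 (0.115), 8 (0.147) or 9 (0.0564) and when only these 2 groups were fitted (0.111). Under quantile normalisation neither change of Cldn5 passed the threshold, with -0.26 (adjusted p = 0.162) in PAP against CHR and 0.41 (adjusted p = 0.115) in SCC against PAP.

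Endothelial genes, set beside Cldn5, did not all move the same way. Of 16 measured, 8 were lower and 2 higher in PAP than in CHR, beside 29.3% and 23.3% of all genes. For this comparison limma-voom called 6 lower and 2 higher, beside 3960 and 3378 of all 14521 genes. Carcinomas had 8 higher and 0 lower against PAP, beside 8.75% and 1.1% of all genes. There limma-voom called 2 higher and 0 lower, beside 857 and 73 of all 14521 genes. At an unadjusted p under 0.05 limma had 11 higher and 0 lower, beside 3570 of all genes in either direction. Against CHR, carcinomas had 3 of the 16 higher and 1 lower, beside 15.8% and 22.7% of all genes. Summed reads of the 16 genes were 9227 to 13460 in CHR, 5577 to 9681 in PAP and 8652 to 14074 in SCC, and none of the 16 was at 0 throughout. Pecam1, the adhesion molecule CD31 of endothelium, fell by 0.96 ± 0.17 on the log2 scale in PAP against CHR (limma adjusted p = 0.000361). Emcn and Flt1, an endothelial sialomucin and a receptor for vascular endothelial growth factor, rose instead, by 0.83 ± 0.12 and 0.40 ± 0.11. Scaled to the keratinocyte genes, Emcn had -0.66, Flt1 -1.08, Pecam1 -2.45 and Cldn5 -2.13 in PAP against CHR. That scaling shifted every log2 fold change of this comparison by the same amount and put the median of all genes at -1.48. A place above or below this median repeats the sign before scaling and is no further result. Across the 18 samples, which include 3 from each mouse, the Pearson correlation of Cldn5 was 0.86 with Pecam1, 0.84 with Plvap and 0.78 with Erg, and -0.07 with Kdr, 0.03 with Flt1 and -0.19 with Emcn. Vessel content as a source of the Cldn5 difference was not tested.

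**Figure D2:**
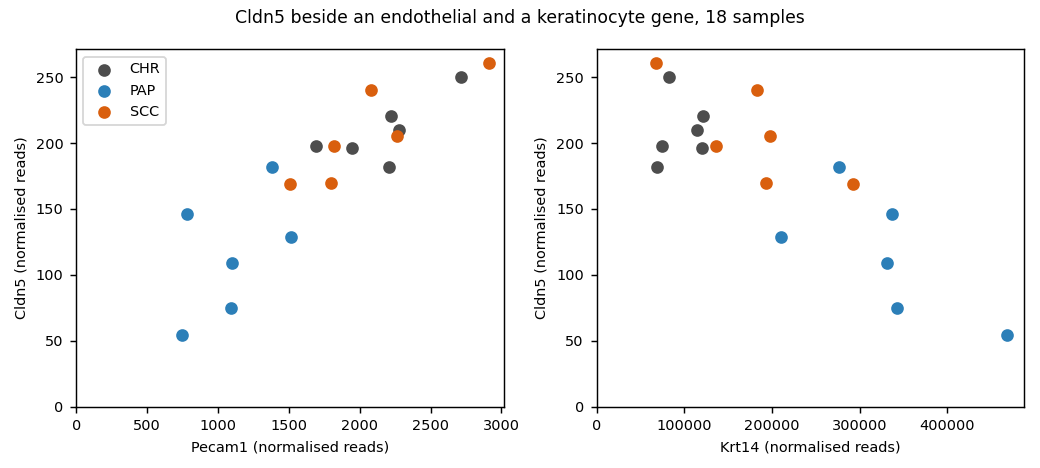
Cldn5 (vertical axes, normalised reads) against the endothelial gene Pecam1 (left) and the keratinocyte gene Krt14 (right), both in normalised reads. Each point is 1 of 18 samples, coloured by group. Papillomas mostly sit at low Cldn5 and low Pecam1 with high Krt14, and CHR and SCC samples share the range of Cldn5 from 169.2 to 260.8. The papilloma of mouse 3 (Cldn5 181.8) lies in that range. The carcinoma of mouse 10 has more Krt14 (292681) than the papillomas of mice 2 and 3, and slightly less Pecam1 (1510) than the papilloma of mouse 2 (1518).

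Cldn4, a claudin of many simple and stratified epithelia, was not called in any comparison. It is encoded on the minus strand of chromosome 5 from 134945119 to 134946934, 39.3 kb from Cldn3. Levels were 1116, 1539 and 2502 normalised reads in CHR (lowest, median, highest), 353.7, 1053 and 2940 in PAP, and 499.8, 1302 and 2161 in SCC. The papillomas spread most, with mice 2 and 9 above every CHR sample and mice 3, 8 and 10 below all of them. Log2 fold changes were -0.39 ± 0.44 in PAP against CHR (limma adjusted p = 0.477), 0.00 ± 0.44 in SCC against PAP (adjusted p = 1) and -0.39 ± 0.44 in SCC against CHR (adjusted p = 0.509). The standard errors leave room for changes in either direction.

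Cldn7 and Cldn8, both expressed in lining and ductal epithelia, were low and varied by mouse. Cldn7 lies on chromosome 11 from 69964779 to 69967885 on the plus strand. Its levels were 0, 2.63 and 18.2 normalised reads in CHR (lowest, median, highest), 1.04, 3.3 and 21.2 in PAP, and 0, 22.6 and 76.4 in SCC. The carcinomas of mice 7, 9 and 3 had 76.4, 74.2 and 34.1, above every CHR and PAP sample, while the carcinoma of mouse 10 had 0. In SCC against CHR, Cldn7 was higher in 5 of 6 mice and equal at 0 in mouse 10, a log2 fold change of 0.62 ± 0.25 that missed the threshold with a limma adjusted p of 0.0626. It passed without mouse 2 (0.74, adjusted p = 0.0324) or mouse 10 (0.75, adjusted p = 0.0446), with quantile normalisation (0.74, adjusted p = 0.0301) and with only the 2 groups fitted (0.62, adjusted p = 0.0456). It did not pass in the other alternatives, with 0.45 (adjusted p = 0.176) without mouse 7, and turned to -0.25 (adjusted p = 0.52) with keratinocyte scaling.

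Cldn8 lies on the minus strand of chromosome 16 from 88560828 to 88563183. It ranged from 23.9 to 141.1 normalised reads in CHR (median 66.1), from 8.39 to 119.6 in PAP (median 37.7) and from 21.5 to 220.8 in SCC (median 87.6). Carcinomas of mice 7 and 9 again held the highest levels, at 198.6 and 220.8, and papillomas of the same mice the lowest, at 10.4 and 8.39. None of the 3 comparisons was called, with log2 fold changes of -0.36 ± 0.37 (PAP against CHR), 0.62 ± 0.37 (SCC against PAP) and 0.26 ± 0.37 (SCC against CHR) and limma adjusted p-values of 0.442, 0.34 and 0.611.

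Cldn12, a claudin that lacks the usual ZO-binding motif at its end, had similar levels in all groups. It lies on the minus strand of chromosome 5 from 5489537 to 5514958. Its means were 619.3 ± 77.7 normalised reads in CHR, 716.8 ± 153.8 in PAP and 765.9 ± 245.1 in SCC (SD, n = 6). The carcinoma of mouse 10, at 1226, stood above all other samples. Log2 fold changes of 0.17 ± 0.13, 0.07 ± 0.13 and 0.24 ± 0.13 for PAP against CHR, SCC against PAP and SCC against CHR had limma adjusted p-values of 0.299, 0.81 and 0.175.

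Tjp1, the gene of the scaffold ZO-1, was the only one of the 9 called higher in a papilloma comparison with CHR, and the change was small. It spans 65296165 to 65527781 on the minus strand of chromosome 7. Levels ran from 3138 to 4096 normalised reads in CHR (median 3716), from 3344 to 5640 in PAP (median 4908) and from 3635 to 5002 in SCC (median 4590). Papillomas of 5 mice lay above every CHR sample, and that of mouse 3 lay among them. PAP against CHR gave 0.35 ± 0.13 on the log2 scale, higher in 5 of 6 mice (limma adjusted p = 0.0384). It turned to -1.14 after scaling to the keratinocyte genes, a scaling that moved the median of all genes by -1.48 and called 94.5% of all genes lower. The call was lost under quantile normalisation (adjusted p = 0.0991), when only the 2 groups were fitted (0.0501), and without mouse 2, 7, 8, 9 or 10, with adjusted p-values of 0.0632, 0.136, 0.0643, 0.132 and 0.0695. SCC against PAP gave -0.09 ± 0.13 (adjusted p = 0.719) and SCC against CHR 0.26 ± 0.13 (adjusted p = 0.138).

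Relative to the same keratinocyte genes, all 9 members were called lower in PAP against CHR, beside 94.5% of all genes. Cldn1 then had -2.52, Ocln -2.73, Cldn23 -2.43 and Tjp1 -1.14, with the median of all genes at -1.48. The scaling shifts all genes of a comparison alike, so their order is that before scaling. For SCC against CHR this scaling put the median at -0.90 and called 77.3% of all genes and 7 of the 9 members lower. For SCC against PAP it put the median at 0.59, and 4 members were called, beside 5587 of 14521 genes.

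**Figure D3:**
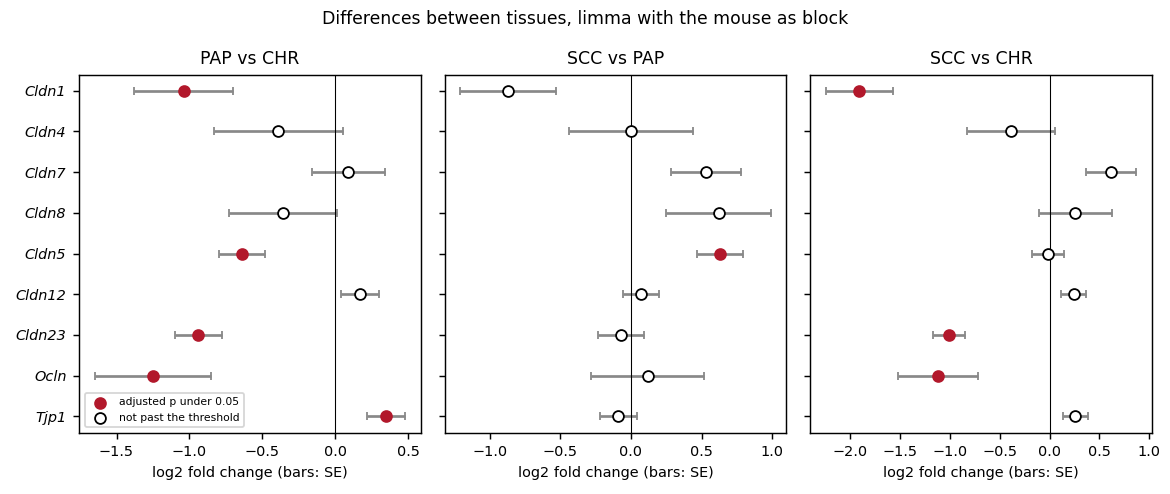
Log2 fold changes (horizontal axes, bars are SE) of the 9 genes in the 3 comparisons, from limma with the mouse as block. Filled points had an adjusted p under 0.05. Cldn1 goes from -1.04 in PAP against CHR to -1.91 in SCC against CHR, Cldn5 has opposite signs in the first and second panel, and Tjp1 is the only filled point above 0 in PAP against CHR, a sign that turns after scaling to keratinocyte genes (-1.14).

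Per kilobase of exon, Cldn1 was the most abundant of the 9 genes in CHR, with 1255 ± 375.4 normalised reads per kb (SD, n = 6), followed by Cldn4 with 887.3 ± 260.8 and Tjp1 with 466.7 ± 44.3. Ocln (171.4 ± 98.7), Cldn5 (147.9 ± 16.9) and Cldn12 (146.5 ± 18.4) came next, with levels that overlapped among these genes. Cldn23 (46.8 ± 20.6), Cldn8 (30.3 ± 16.7) and Cldn7 (2.43 ± 3.44) were the lowest. In SCC the highest means were those of Cldn4 with 705.6 ± 314.5, Tjp1 with 561.8 ± 73.4 and Cldn1 with 344.7 ± 189.5, and the levels of all 3 overlapped. In PAP, Cldn4 (822.6 ± 615.6), Cldn1 (625.3 ± 250.2) and Tjp1 (603.2 ± 100.6) could not be ordered beyond their spread.

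Of the reads per kb from 11 claudin genes with an unambiguous symbol, Cldn1 held 48.5 ± 3.01% in CHR, 37.6 ± 14.4% in PAP and 21.3 ± 10.6% in SCC. Cldn4 held 34.4 ± 2.15%, 41.6 ± 18.1% and 40.3 ± 12.8% in the same groups. Within mice the share of Cldn1 was lower in SCC than in CHR in 6 of 6 mice, by 27.3 ± 8.73 percentage points (SD). The log2 ratio of Cldn4 to Cldn1 was higher in SCC than in CHR in 6 of 6 mice, by 1.55 ± 0.85. These are ratios within a library, which show unequal change and not which of the genes moved. The claudin total was 2566 ± 667.1 reads per kb in CHR, 1772 ± 689.9 in PAP and 1719 ± 465.8 in SCC.

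**Figure D4:**
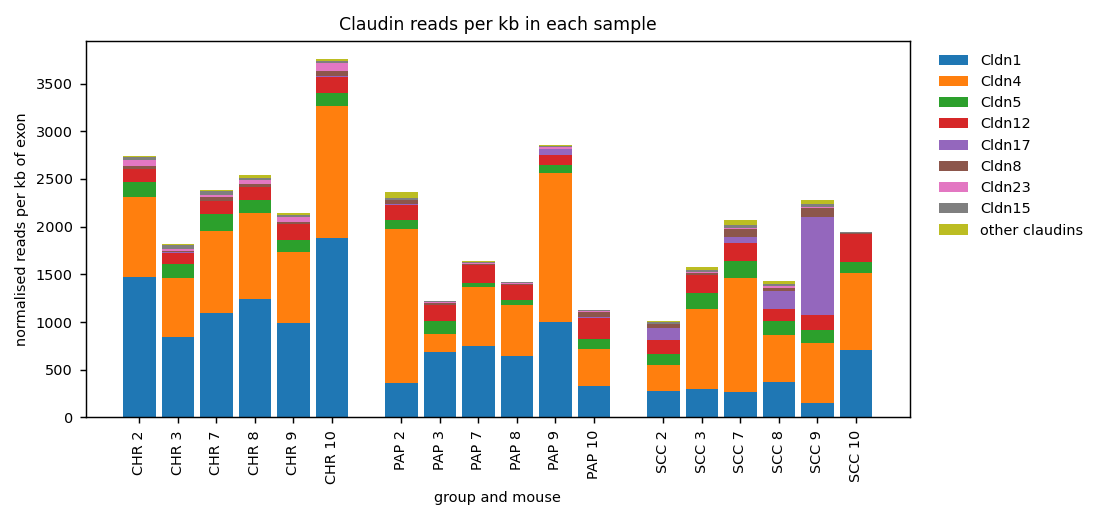
Normalised reads per kb of exon (vertical axis) of the claudin genes, stacked for each of the 18 samples (horizontal axis, group and mouse). The blue part, Cldn1, is the largest in all CHR samples, at 46 to 53.6% of claudin reads per kb, and holds 6.7 to 36.2% in carcinomas, and Cldn17 in purple takes up to 45% of claudin reads per kb in the carcinoma of mouse 9.

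Levels of each gene were then set beside those of all other genes over the 18 samples, by the Pearson correlation of log2 values. Most like Cldn1 were Clca2 (0.95) and Abhd12b (0.95). Among the genes most like Cldn23 were Elovl6 (0.94) and Acsl5 (0.93), which encode enzymes of fatty acid metabolism. Ocln was most like Rfk (0.90), Tnip3 (0.87) and Marveld2 (0.86), the last encoding tricellulin, the occludin relative at corners where cells meet. Cldn5 was most like Tmem252 (0.88), Pkig (0.88) and S1pr1 (0.86), and Cldn7 most like Hmga2 (0.87), Oaf (0.86) and A2m (0.86). Lower values were found for Cldn4 with C1galt1c1 (0.80), Slco1a5 (0.77) and Ranbp6 (0.76), and for Cldn8 with Cd34 (0.78), Entpd3 (0.78) and Hsdl1 (0.77). Cldn12 was most like Rnf34 (0.90), Fam133b (0.81) and Tmem186 (0.76), and Tjp1 most like Rhod (0.91), Psmd12 (0.88) and Xpnpep1 (0.88).

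Among the 9 genes, the highest correlations were 0.74 between Cldn23 and Ocln, 0.69 between Cldn1 and Cldn23 and 0.58 between Cldn4 and Ocln. Cldn1 and Cldn7 had -0.70. These values are descriptions of 18 samples in which 3 come from each mouse and all share the group differences given above.

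Of 51 other tight junction genes listed, 36 were measured, and 8 were higher and 12 lower in PAP against CHR, beside 23.3% of all genes higher and 29.3% lower, with a median log2 fold change of 0.10 beside 0.00 for all genes. Carcinomas against CHR had 4 higher and 6 lower, beside 15.8% and 22.7% of all genes, with a median of -0.09 beside -0.02. Carcinomas against papillomas had 3 higher and 2 lower, beside 8.75% and 1.1%, with a median of -0.10 beside -0.02.

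The largest falls in PAP against CHR were those of Jam2 (-2.42 ± 0.24, limma adjusted p = 5.00e-06), a junctional adhesion molecule of vessels, of Ildr2 (-1.57 ± 0.27) and Tjp3 (-1.56 ± 0.28), the gene of the scaffold ZO-3, and of Cgnl1 (-1.47 ± 0.22), the gene of paracingulin. Tjp3 also fell in SCC against CHR, by 1.73 ± 0.28 on the log2 scale, with Jam2 (-1.40 ± 0.24), Ildr1 (-1.11 ± 0.21), the gene of angulin-2, and Marveld2 (-1.02 ± 0.27). F11r, the gene of junctional adhesion molecule A, rose in PAP (0.96 ± 0.24) and in SCC (0.80 ± 0.24) against CHR. The polarity genes Pard6g (1.01 ± 0.25) and Inadl (0.92 ± 0.14) rose in PAP, and Magi3, the gene of a membrane-associated scaffold, rose in SCC (1.09 ± 0.18). A gene under the symbol Cldn25 rose in PAP (0.88 ± 0.16) and SCC (0.47 ± 0.16), but this symbol has been used for more than 1 gene, so its identity is uncertain. Scaled to the keratinocyte genes, all 8 rises of the list in PAP against CHR turned, with F11r at -0.53, Pard6g at -0.48, Inadl at -0.57 and Cldn25 at -0.61. This shift is the same for all genes, whose median was then -1.48, and is not particular to these 8. In SCC against CHR F11r (-0.07) and Cldn25 (-0.40) turned while Magi3 had 0.21 (adjusted p = 0.361).

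Cldn17, which lies 53.8 kb from Cldn8, had the largest increase of the list in SCC against CHR. Its levels were 0 to 3.91 normalised reads in CHR, 0 to 67.1 in PAP and 4.38 to 1201 in SCC (medians 1.1, 5.67 and 109.3). The carcinomas of mice 9, 8 and 2 held 1201, 219.8 and 144.4, while those of mice 3 and 10 held 4.38 and 4.48. On the log2 scale it rose by 1.97 ± 0.49, higher in 6 of 6 mice (limma adjusted p = 0.00733), and 1.09 with an adjusted p of 0.037 when scaled to the keratinocyte genes.

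**Figure D5:**
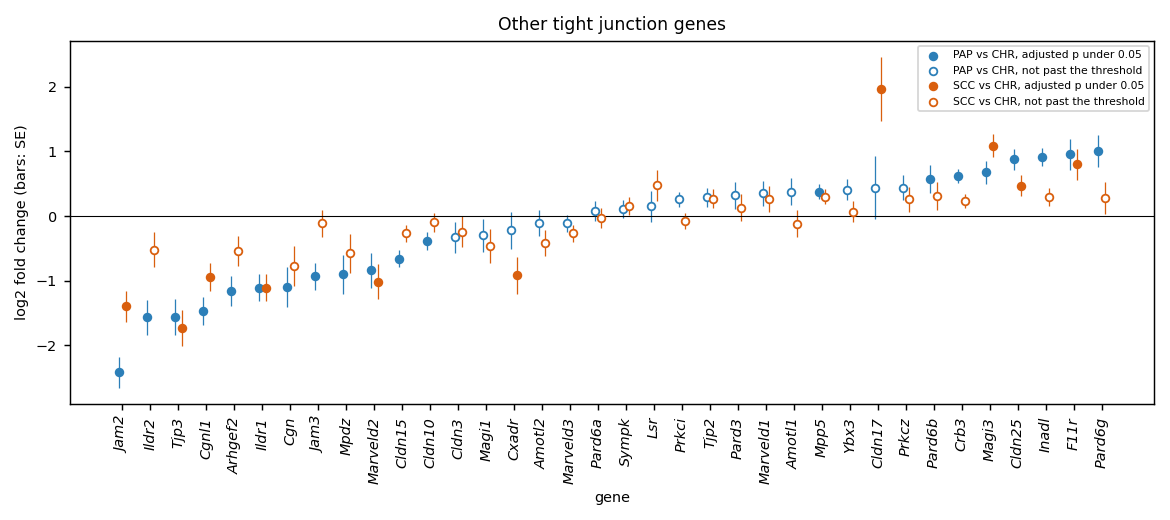
Log2 fold changes (vertical axis, bars are SE) of the 36 other tight junction genes (horizontal axis) in PAP against CHR (blue) and SCC against CHR (orange), ordered by the former. Filled points had an adjusted p under 0.05. Jam2 is lowest at -2.42 in PAP, and Cldn17 stands apart at 1.97 in SCC. The 8 called rises in PAP turn negative when scaled to keratinocyte genes, a scaling that shifts all genes alike and puts their median at -1.48.

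Genes that act beside claudins were called in both directions, as were genes in general. Of 13 measured claudin partners and barrier regulators, 4 were higher and 2 lower in PAP against CHR, beside 23.3% and 29.3% of all genes. Among the higher were Ripk4 (1.39 ± 0.14), Grhl2 (1.11 ± 0.15) and Klf4 (0.88 ± 0.27), all known for epidermal differentiation. Scaled to the keratinocyte genes, which shifts all genes alike, these were -0.10, -0.38 and -0.61, with the median of all genes at -1.48. Epcam, whose protein binds and stabilises claudins, and Prss8, a membrane protease of the epidermal barrier, fell by 1.30 ± 0.38 and 0.98 ± 0.32. After that scaling they had -2.79 and -2.47. In SCC against CHR, 2 of the 13 were higher and 2 lower, beside 15.8% and 22.7% of all genes. Epcam (-1.44 ± 0.38) and Prss8 (-1.24 ± 0.32) were lower, and Ripk4 (0.68 ± 0.14) and Grhl2 (0.64 ± 0.15) higher. Scaled to the keratinocyte genes, Ripk4 and Grhl2 had -0.19 and -0.24, and Epcam and Prss8 -2.32 and -2.12, beside a median of -0.90 for all genes. In SCC against PAP, 1 of the 13, Ripk4, was lower (-0.70 ± 0.14, limma adjusted p = 0.0116) and 0 were higher, beside 1.1% and 8.75% of all genes. Scaled to the keratinocyte genes Ripk4 had -0.09 (limma adjusted p = 0.692). With only the 2 groups fitted, or without mouse 7 or 8, no gene was called in this comparison.

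Of 12 adherens junction genes, 5 were higher and 2 lower in PAP against CHR, beside 23.3% and 29.3% of all genes. In SCC against CHR, 1 was higher and 1 lower, beside 15.8% and 22.7% of all genes. Cdh3, the gene of P-cadherin, rose by 1.96 ± 0.24 in PAP and by 1.67 ± 0.24 in SCC. Scaled to the keratinocyte genes it had 0.48 in PAP, where the call was lost (limma adjusted p = 0.0783), and 0.80 in SCC (adjusted p = 0.00895). The median of all genes was then -1.48 and -0.90. Mllt4, the gene of afadin, fell by 0.57 ± 0.15 and 0.58 ± 0.15, and Pvrl3, the gene of nectin-3, fell by 1.12 ± 0.29 in PAP. Cdh1, the gene of E-cadherin, was not called, with 0.12 ± 0.11 in PAP against CHR (limma adjusted p = 0.289) and -0.18 ± 0.11 in SCC against CHR (adjusted p = 0.214). Between SCC and PAP, limma called 0 of the 12, beside 8.75% of all genes higher and 1.1% lower. At an unadjusted p under 0.05 limma had 4 lower and 0 higher, beside 3570 of 14521 genes in either direction. With limma-voom 0 of the 12 were called, beside 857 genes higher and 73 lower.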

How the data were processed

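mRNA of 18 skin samples was sequenced, 3 from each of 6 mice, and groups and mouse numbers were taken from the sample titles. The authors aligned reads to mm10 with MOSAIK, counted them per gene with HTSeq, applied scaling factors and a variance-stabilizing transformation. A batch scaling of medians is named in their methods too. Software versions, the annotation and strandedness were not given in the sources used here. The deposited values are a score for expression, given as integers after that transformation without a log, in which 0 reads appear as 39. All 18 columns were used. Of 14542 rows, 21 without a gene symbol (at most 0.236% of the total) were left out.

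Reads were recovered by inverting the transformation with a zero level of 39.13, and for 98.8% of values a whole number of reads, transformed and rounded again, gave back the deposited integer with no difference. Size factors were 0.835 to 1.178 and recovered depth 15.4 to 21.0 M reads (median 18.9 M). Intervals of counting error were not used, since the spread between mice is given throughout.

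limma 3.58.1 (R 4.3.3) was fitted to log2(value + 1) in all 18 libraries with the group and the mouse as terms, with Benjamini-Hochberg adjustment over 14521 genes and a two-sided threshold of 0.05. The script was tested on simulated data. Same-numbered samples come from the same mouse, and correlations of their deviations from the group means were -0.24 to 0.51. The 15 alternatives comprised other blocks, scales, filters and normalisations and leaving out each mouse. Coordinates and exon lengths are from GENCODE M21 (GRCm38), and promoters from RefSeq (GRCm38.p6). The members and all gene lists were chosen with earlier results of these data known. Named beside the members were the 3 genes most correlated with each, and up to 4 genes per junction or regulator list and direction with the largest called changes against CHR, and a few genes that this rule names are not reported here.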

Additional observations from a re-analysis of the deposited data

Results flagged for a closer look

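Among 27 groups of 6 samples (9 genes in 3 groups), 5 held a sample whose gap to its nearest neighbour, divided by the range of the group, exceeded the 95% critical value of Dixon for 6 samples. Chance gives about 1 such group in 20 if the reads follow a normal distribution, which was not tested. All 5 flagged samples were the highest of their group. Cldn4 in CHR was highest in mouse 10 with 2502 normalised reads (gap over range 0.63). Cldn7 stood apart in the CHR sample of mouse 9 with 18.2 normalised reads (0.83) and in the papilloma of mouse 2 with 21.2 (0.75). Cldn12 was highest in the carcinoma of mouse 10 with 1226 normalised reads (0.63), and Ocln in the carcinoma of mouse 9 with 910.9 (0.64).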

How the results depend on the processing

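Of the log2 fold changes of the 9 genes under 15 alternatives, 339 kept direction and side of the threshold, 12 passed it, 27 lost it and 27 changed sign. Cldn23 against CHR, and Cldn1 in SCC against CHR, kept their calls in all of them. Where a value changed, the cause was not tested.

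Members called in PAP against CHR numbered 5, against 3 with quantile normalisation, 9 with scaling to the keratinocyte genes and 2 to 5 without 1 mouse. Over all genes PAP against CHR had 7639 calls, 8550 with quantile normalisation, 13779 with keratinocyte scaling and 6545 to 7319 without 1 mouse. For SCC against PAP 1 was called, against 0 with quantile normalisation, 4 with keratinocyte scaling, 0 with only the 2 groups fitted and 0 to 2 without 1 mouse. For SCC against CHR 3 were called, 7 with keratinocyte scaling, 4 with quantile normalisation, 2 with limma-voom, on the log2 recovered count or without the replicate block, and 2 to 3 without 1 mouse. All-gene calls for SCC against CHR were 5583, 11337 with keratinocyte scaling and 6347 with quantile normalisation. They were 5122 with limma-voom, 5269 on the log2 recovered count, 5306 without the replicate block and 4214 to 5482 without 1 mouse. For the other tight junction genes keratinocyte scaling gave 36 calls in PAP against CHR and 30 in SCC against CHR, beside 13779 and 11337 of 14521 genes. Their 5 calls in SCC against PAP became 3 without the replicate block, 3 with limma-voom, 3 with quantile normalisation, 12 with keratinocyte scaling, 0 with only the 2 groups, and 0 to 9 without 1 mouse. All-gene calls for SCC against PAP were 1430, 1035 with quantile normalisation and 5587 with keratinocyte scaling. Those of the other settings are given below.

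Signs turned with keratinocyte scaling for Cldn7 (-1.40), Cldn12 (-1.31) and Tjp1 (-1.14) in PAP against CHR, for Cldn4 (0.61), Cldn23 (0.54) and Tjp1 (0.52) in SCC against PAP, and for Cldn7 (-0.25), Cldn8 (-0.61), Cldn12 (-0.64) and Tjp1 (-0.62) in SCC against CHR. With quantile normalisation they turned for Cldn8 in PAP against CHR (0.15), for Cldn4 (0.01) and Ocln (-0.02) in SCC against PAP and for Cldn5 in SCC against CHR (0.15). Cldn4 in SCC against PAP also turned with limma-voom (0.05) and on the log2 normalised count (0.02), and Cldn5 in SCC against CHR with limma-voom (0.04). Without 1 mouse the ranges that crossed 0 were -0.02 to 0.19 for Cldn7 in PAP against CHR, -0.38 to 0.48 for Cldn4, -0.01 to 0.14 for Cldn12, -0.15 to 0.00 for Cldn23 and -0.03 to 0.36 for Ocln in SCC against PAP, and -0.05 to 0.03 for Cldn5 in SCC against CHR.

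Without the replicate block, Ocln in SCC against CHR was the one member call that changed (adjusted p = 0.0675). Over all genes, SCC against PAP had 1430 calls, 810 without the block, 930 with limma-voom and 0 with only the 2 groups (2830 at an unadjusted p under 0.05). It had 0 without mouse 7 or 8, 471 without mouse 3 and 1995 without mouse 10. With quantile normalisation 62.4% of calls in PAP against CHR were higher, beside 44.4%, and 57.8% beside 41% in SCC against CHR. The share in SCC against PAP was 68.5% beside 88.8%, and limma-voom gave 52.9% in SCC against CHR. Keratinocyte scaling gave 0.399%, 99.9% and 1.05% in the 3 comparisons. Depth limits Cldn7 and Cldn17, with libraries at 0 reads.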
